A study of Mus musculus with 12 samples.

Results

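The cytosolic ribosomal protein genes encode the proteins of the ribosome that works in the cytoplasm. They were taken by name: symbols beginning with Rpl or Rps and a number, Rplp0 to Rplp2 and Rpsa, without the S6 kinases (Rps6k). Symbols marked as pseudogenes by the letters -ps were left out, and no other annotation of pseudogenes was used. Of 24341 genes in the count table, 90 symbols matched, each represented by its RefSeq accession with the highest mean level, and 72 reached a mean of at least 1 CPM (count per 1000000 counts of a library). Those 72 genes are described here, and all 72 also passed the filter on low counts that was applied before testing. RNA had been sequenced from 12 aortas of 10-week-old male C57BL/6J mice, 4 in each of 3 groups. In the saline group the infrarenal aorta had been infused with saline and was taken at day 7. In the other 2 groups it had received porcine pancreatic elastase (PPE), a protease that breaks down elastic fibres so that the vessel dilates, and the aorta was taken at day 7 (called PPE week 1) or at day 14 (called PPE week 2). No saline group was taken at day 14, so elastase and the longer time after infusion cannot be told apart in the comparison of PPE week 2 with saline. A library is RNA of whole aortic tissue and holds all its cell types together.

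A ribosome has a small subunit, which binds the messenger RNA and decodes it, and a large subunit, which joins the amino acids. Both are built in the nucleolus from ribosomal RNA, cut from a long precursor, and from proteins imported from the cytoplasm. A stalk of acidic proteins on the large subunit recruits translation factors. Most ribosomal protein mRNAs begin with a short run of pyrimidines, the terminal oligopyrimidine (TOP) tract, through which mTOR signalling sets how much of them is translated, and growing or dividing cells are known for making more ribosomes.

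The 18 symbols under the minimum included proteins of every ribosome, such as Rpl19, Rpl30, Rpl38, Rps15, Rps24 and Rps27a. Of these 18, 14 had several RefSeq accessions, whereas none of the 72 genes kept had more than 1. Rps24, at 0.906 CPM, and Rps27, at 0.933 CPM, lay just under the minimum, and the lowest kept were Rps29, Rps21 and Rps28, at 1.83, 2.22 and 3.00 CPM before TMM scaling. The muscle form Rpl3l and the retrogene forms Rpl10l and Rpl39l were also under it, with 3, 0 and 8 counts in all 12 libraries, as was the paralog Rps27l with 9. The value of a gene with several accessions is here that of 1 accession, and whether it measures the level of the gene was not tested. Among the 72, 4 matched the name rule without being a standard subunit: Rps19bp1 is a binding protein of Rps19, Rps23rg1 is a retrogene of Rps23, Rpl32l is a processed pseudogene in GENCODE, and Rps4l is a non-coding RefSeq entry. Ribosomal protein genes also have many processed copies in the genome. In 71 genes with a GENCODE transcript, a median of 50.7% of the 50-base windows of the mRNA (lowest 6.68%, highest 100%) occurred in no other gene. A total of 68 of the 71 shared at least 1 window with an annotated pseudogene, with a median of 8 pseudogenes and up to 120 for Rpl7a. Of 70 mitochondrial ribosomal protein genes, 26 did so, and their median share of own windows was 100%. How the authors' counting treated reads that fit several copies is not given in the sources used here, so the level of each member is uncertain to an extent that was not measured.

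The total count per library was 8343313 to 12269131. The precursor of ribosomal RNA (NR_046233) made up 36.2 to 49.9% of a saline library, 21.0 to 34.6% of a PPE week 1 library and 19.5 to 22.1% of a PPE week 2 library, which left 4835305 to 9169690 counts for everything else. Mature ribosomal RNA is cut from this precursor, so counts assigned to the precursor cannot be told apart from counts of mature ribosomal RNA. Markers of the aorta were present, and the same 7 of 8 smooth muscle markers fell at PPE week 1 and rose again from there to PPE week 2. Their summed level ranged over 6332 to 8395 CPM in saline libraries, 1869 to 3406 in PPE week 1 libraries and 5240 to 11843 in PPE week 2 libraries. Macrophage and monocyte markers summed to 1410 to 1691, 2678 to 3681 and 808 to 2155 CPM in the same order, with Itgam at 0 in all libraries, and 3 of 6 tested rose at PPE week 1. Of 6 fibroblast markers, Dcn, Lum, Dpt and Pi16 fell at PPE week 1, and Dcn, Lum and Dpt were also lower at PPE week 2 against saline. Summed over the 6, which include Col1a1 and Pdgfra, their level was 21278 to 27986, 28093 to 35856 and 20809 to 31682 CPM. T and B cell markers summed to 18.5 to 29.8, 56.2 to 92.0 and 12.9 to 112 CPM, with no overlap between saline and PPE week 1. None of the 5 tested passed in any comparison. Pecam1 of the endothelium and the globins Hba-a1 and Hbb-bs were also at 0 throughout, and no skeletal muscle marker reached the filter. In bulk tissue, fewer cells of a type and less RNA per cell cannot be told apart. The part of the cell mixture in the results below was not tested.

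Summed over the 72 genes, ribosomal protein mRNA took the largest share of counts at PPE week 1 and the smallest at PPE week 2. The share of the counts outside the rRNA precursor was 0.481, 0.574, 0.532 and 0.473% in the saline libraries, 0.601, 0.628, 0.558 and 0.590% in those of PPE week 1, and 0.381, 0.455, 0.327 and 0.444% in those of PPE week 2. The means were 0.515 ± 0.0472%, 0.594 ± 0.0287% and 0.402 ± 0.0595% (SD, n = 4 each). All 4 PPE week 2 libraries lay below all the others, while PPE week 1 replicate 3 lay below saline replicate 2. The Wilson 95% interval of a library's share was narrow, for example 0.327% with 0.323 to 0.331% in PPE week 2 replicate 3, and covers counting error only. With the rRNA precursor kept in the denominator, the means were 0.300% (saline), 0.413% (PPE week 1) and 0.320% (PPE week 2), so that the order of saline and PPE week 2 depends on the denominator. Levels below are in CPM scaled by TMM, a factor per library that centres the bulk of features and takes that shift out. On this scale the summed level was 3257 to 4134 CPM over saline libraries, 3722 to 4347 CPM over PPE week 1 libraries and 2358 to 2997 CPM over PPE week 2 libraries.

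**Figure D1:**
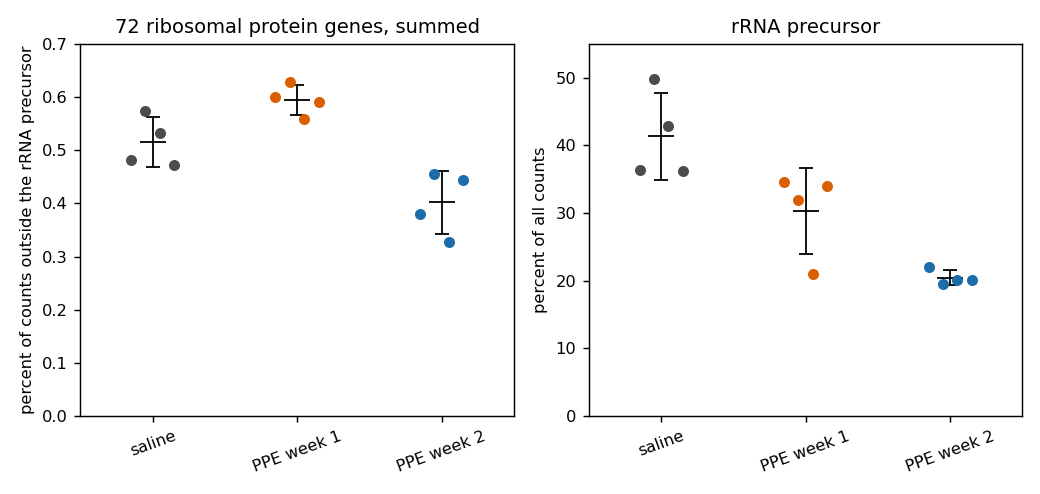
Each point is 1 library, with the mean and SD of the 4 libraries of a group, for the summed share of the 72 ribosomal protein genes in percent of the counts outside the rRNA precursor (left) and for the precursor in percent of all counts (right). The 4 PPE week 2 libraries, at 0.327 to 0.455%, lie below the other 8 on the left, and the precursor is at 19.5 to 22.1% in them on the right.

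Among the saline libraries the ribosomal protein genes were higher where the share of counts assigned to the rRNA precursor was higher. A score per library was taken as the median over the 72 genes of log2 CPM (prior count of 2) relative to that gene's average in the 12 libraries. It was 0.45 and 0.34 in saline replicates 2 and 3, whose precursor share was 49.9 and 42.9%, and -0.01 and -0.02 in saline replicates 1 and 4, at 36.4 and 36.2%. At PPE week 1 the scores were 0.39, 0.41, 0.10 and 0.24, at precursor shares of 34.6, 31.9, 21.0 and 34.0%. The lowest belonged to replicate 3, with the lowest share, but replicate 4 scored below replicate 2 at a higher share. At PPE week 2 the scores were -0.56, -0.30, -0.60 and -0.42, at 22.1, 19.5, 20.1 and 20.1%. There the highest score belonged to the library with the lowest share, so the order seen in saline did not hold within the PPE groups. PPE week 1 replicate 3 had a precursor share within the range of the PPE week 2 libraries, 19.5 to 22.1%, and its score of 0.10 was above all of theirs. The precursor share did not overlap between saline and PPE week 2, so share and group cannot be told apart there.

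Compared per length of the mRNA, the members differed widely in level. Mean CPM per kilobase over the 12 libraries was highest for Rpl41, whose product is a very short peptide, at 353, and was 176 for Rpl8. It was lowest for Rps4l at 4.09, Rps29 at 4.76 and Rps15a at 5.09. The length used for Rps15a is that of a long GENCODE transcript of 5179 bases, so its value per kilobase is understated if the aorta makes the short form. A ribosome holds a single copy of each protein outside the stalk, and a value in CPM per kilobase also depends on how much of the gene was counted. Across 71 members, level per kilobase and the share of own windows had a Spearman rho of -0.09, a description over genes of the same libraries.

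PPE week 1 and saline were both taken at day 7, so this comparison addresses elastase against saline at a matched time. Most ribosomal protein genes were not distinguished, and 7 rose, among them Rpl3, Rpl29, Rps9, Rpl8, Rpsa and Rpl41. With edgeR's quasi-likelihood test and Benjamini-Hochberg adjustment over 12756 features, that was 7 of 72 members higher, 9.72%, against 3.98% of all features, and 0 lower, against 3.91%. At an unadjusted p under 0.05, 10 members were higher (11.6% of all features) and 1 lower (10.1% of all features), and DESeq2 and limma-voom also found none lower. The count of 7 fell to 3 without saline replicate 1 (2.58% of all features) or without PPE week 1 replicate 2 (1.17%). It fell to 4 without saline replicate 4 (1.56%), and to 1 with the rRNA precursor share as a covariate (0.180%). Of the 72 log2 fold changes, 44 were above 0 and 28 below, against 50.2 and 49.8% of all features, with a median of 0.08 and a range of -0.51 to 0.89. The median of all tested features was 0.00. Levels did not overlap between the groups in 9 members, all higher, which is 12.5% and close to the 12.1% of all features. No member was lower without overlap, against 9.01% of all features.

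The largest rise was that of Rpl3 (NM_013762, chr15:80077781-80083406, mm10), a large-subunit protein near the peptidyl transferase centre. It was at 44.7, 62.3, 67.7 and 60.4 CPM in the saline libraries, 124, 108, 105 and 99.7 in those of PPE week 1 and 43.7, 47.9, 46.4 and 63.9 in those of PPE week 2. All 4 PPE week 1 libraries were above all 8 others, and the PPE week 2 libraries overlapped saline. From 58.8 ± 9.89 to 109 ± 10.4 CPM (mean ± SD, n = 4), the change was 1.86-fold (log2 fold change 0.89 ± 0.17 SE, adjusted p = 0.00519 by edgeR). Rps9 (NM_029767, chr7:3703954-3706897), which with Rps2 and Rps3 lines the channel where mRNA enters the small subunit, had the same order of groups. It was at 64.7, 90.9, 89.4 and 66.8 CPM in the saline libraries, 145, 148, 123 and 125 in those of PPE week 1 and 60.9, 81.8, 55.3 and 99.6 in those of PPE week 2, with no overlap at PPE week 1. The 1.74-fold rise (log2 fold change 0.80 ± 0.19 SE, adjusted p = 0.0159 by edgeR) did not pass without saline replicate 1, saline replicate 4 or PPE week 1 replicate 2, and over the 12 fits that each left out 1 library the adjusted p was 0.00775 to 0.0604.

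Rpl8 and Rpl29 were higher at both weeks. Rpl8 (NM_012053, chr15:76904071-76906318) encodes a conserved protein close to the peptidyl transferase centre, and 92.1% of its 50-base windows occurred in no other gene. Its levels were 102, 100.4, 99.6 and 96 CPM in the saline libraries, 177, 187, 155 and 150.5 in those of PPE week 1 and 146, 202, 171 and 209 in those of PPE week 2. Both PPE groups lay wholly above saline and overlapped each other. The rise was 1.68-fold at PPE week 1 (log2 fold change 0.75 ± 0.13 SE, adjusted p = 0.00378) and 1.83-fold at PPE week 2 (log2 fold change 0.87 ± 0.13 SE, adjusted p = 0.00408; both edgeR). Rpl29 (NM_009082, chr9:106428889-106431568), a small basic protein also known for binding heparin, was at 62.4, 77.5, 58.3 and 56 CPM in the saline libraries, 111, 118, 113 and 109.7 in those of PPE week 1 and 108, 135, 108 and 132 in those of PPE week 2. Again both PPE groups lay above saline without overlap, by 1.78-fold (log2 fold change 0.83 ± 0.14 SE, adjusted p = 0.00317) and 1.90-fold (log2 fold change 0.93 ± 0.14 SE, adjusted p = 0.00407; both edgeR). Rpl29, with 33.8% of its windows in no other gene, shared windows with 80 annotated pseudogenes, Rpl8 with 1. Both passed at both weeks in each of the 12 fits that left out 1 library. The saline group is common to the comparisons at PPE week 1 and PPE week 2.

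Rpsa and Rpl41 rose by less. Rpsa (NM_011029, chr9:120127766-120132369), a small-subunit protein first described as a laminin receptor, was at 107, 118, 106 and 80.8 CPM in the saline libraries, 157, 154, 127 and 142 in those of PPE week 1 and 124, 121, 111 and 126 in those of PPE week 2. It changed by 0.50 ± 0.14 (log2, adjusted p = 0.0354 by edgeR) at PPE week 1, where the groups did not overlap. Rpl41 (NM_018860, chr10:128548110-128549168) was at 126, 149, 128 and 139 CPM in the saline libraries, 193, 211, 171 and 180.1 in those of PPE week 1 and 148, 120.3, 122 and 161 in those of PPE week 2, and changed by 0.48 ± 0.13 (log2, adjusted p = 0.035 by edgeR). Both calls were near the threshold. That of Rpsa was lost in 6 of the 12 fits that left out 1 library (all but saline replicate 2 and PPE week 1 replicate 3 among the 8 libraries compared). That of Rpl41 was lost in 7 (all of those 8 but saline replicate 2). The adjusted p reached 0.118 and 0.136. With the precursor covariate, Rpl29 was the member that still passed, and the members' median was 0.38.

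At PPE week 2, far more ribosomal protein genes were lower than higher. The comparison with saline gave 17 members lower and 2 higher, and that with PPE week 1 gave 26 lower. These comparisons share the PPE week 2 libraries. Of 6 fibroblast markers, Dcn, Lum and Dpt were lower as well against saline. Against PPE week 1, 7 of 8 smooth muscle markers, the fibroblast marker Pi16 and the endothelial marker Vwf were higher. Of 6 tested macrophage and monocyte markers, Cd68 and Lyz2 were lower against PPE week 1 and 0 higher. The part of these cells in the members' differences was not tested. Against saline, 17 lower is 23.6% of the members, beside 1.35% of all features, and the 2 higher are 2.78% beside 1.3%. At an unadjusted p under 0.05, 39 were lower (7.72% of all features) and 3 higher (8.84%). Of the 72 log2 fold changes, 61 (84.7%) were below 0, against 46.3% of all features, and 11 above, against 53.7%. The median was -0.73 and the quartiles -0.95 and -0.24, beside a median of 0.05 over all features. Levels did not overlap in 25 members that were lower (34.7%, beside 4.44% of all features) and in 3 that were higher (4.17%, beside 4.55%).

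Against PPE week 1, 26 members (36.1%) were lower by edgeR's test, beside 2.82% of all features, and 47 had an unadjusted p under 0.05 in that direction (9.87% of all features). None was higher, beside 3.77% of all features, and none was higher at an unadjusted p under 0.05 (10.6% of all features) or by DESeq2 or limma-voom. A total of 69 of 72 log2 fold changes were below 0, against 48.7% of all features, and 3 above, against 51.3%. The median was -0.74, beside 0.02 over all features. In 39 members (54.2%) all PPE week 2 libraries were below all PPE week 1 libraries, as in 8.68% of all features, and in no member were they all above, as in 7.24%. The members called lower numbered 15 in both comparisons, 11 against PPE week 1 alone and 2 (Rpl21 and Rps3a1) against saline alone, and 40 of the 72 passed in no comparison.

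These counts depend on how libraries were scaled and how the spread was estimated. Scaled by library size alone, which moves the median of all features to 0.54, 4 members were lower and 5 higher at PPE week 2 against saline. Of all features, 0.212% were lower and 12.6% higher under that scaling. The members' median then was -0.22, which is 0.76 below that of all features, beside 0.78 below it under TMM. Against PPE week 1, 10 were lower under that scaling (0.588% of all features). With the precursor share as a covariate the median was -0.11 against saline, with no member called by edgeR and 0% of all features called. At an unadjusted p under 0.05, 7 members were lower and 5 higher in that fit. The share of all features at that cut was not computed there, so these counts cannot be set against a background. The members' median in the covariate fit was -0.55 against PPE week 1, with Rps6 and Rpl7 called lower (0.118% of all features). DESeq2 called 32 lower against saline (2.71% of all features) and 37 lower against PPE week 1 (5.58%). A fit of the 8 libraries of PPE week 2 and saline alone called 4 lower (0.351%). Without saline replicate 2, 8 were lower against saline (0.729%), and without PPE week 1 replicate 2, 13 were lower against PPE week 1 (0.837%).

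**Figure D2:**
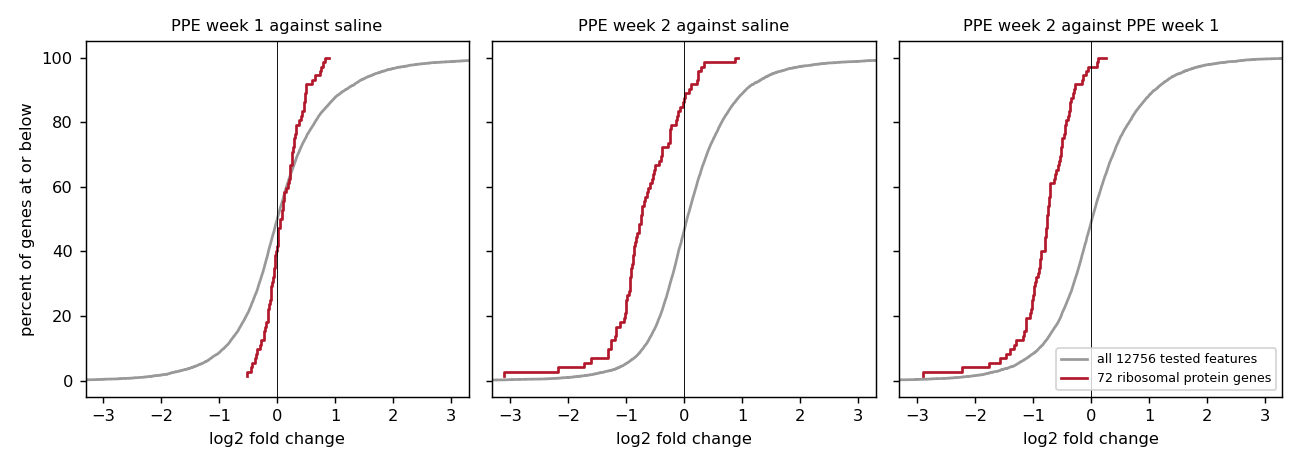
Each panel shows 1 comparison as the percent of genes (y axis) at or below a log2 fold change (x axis, cut at both ends), for the 72 ribosomal protein genes in red and all 12756 tested features in grey. The red line follows the middle of the grey at PPE week 1 and lies to its left at PPE week 2, with medians of -0.73 and -0.74.

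In the small subunit, Rps6, Rps4x and Rps13 fell against both other groups. Rps6 (NM_009096, chr4:86854099-86857367), the protein that S6 kinases phosphorylate downstream of mTOR, was at 167, 171, 195 and 179 CPM in the saline libraries, 190.0, 171, 151 and 148 in those of PPE week 1 and 80.02, 92.6, 82.1 and 99.7 in those of PPE week 2. The 4 PPE week 2 libraries lay below all 8 others, which overlapped each other. It was 2.01-fold lower than in saline (log2 fold change -1.01 ± 0.13 SE, adjusted p = 0.00341 by edgeR) and 1.86-fold lower than at PPE week 1 (log2 fold change -0.90 ± 0.13 SE, adjusted p = 0.00109). Rps4x (NM_009094, chrX:102184941-102189391), the X-linked copy of a small-subunit protein, was at 82.9, 102, 88.7 and 75.4 CPM in the saline libraries, 63.2, 79.3, 65.8 and 61.5 in those of PPE week 1 and 34.2, 38.5, 40.5 and 42.2 in those of PPE week 2. Its PPE week 2 libraries were again below all others, with log2 fold change -1.17 ± 0.16 SE, adjusted p = 0.0036 by edgeR against saline and -0.79 ± 0.16 (log2) against PPE week 1. Rps13 (NM_026533, chr7:116331507-116334190) was lower in level, at 14.3, 12.2, 15.5 and 16.4 CPM in the saline libraries, 15, 18.5, 11.9 and 15.3 in those of PPE week 1 and 1.40, 5.47, 2.71 and 3.38 in those of PPE week 2. It was 4.50-fold lower than in saline (log2 fold change -2.17 ± 0.38 SE, adjusted p = 0.00734 by edgeR) and 4.66-fold lower than at PPE week 1 (adjusted p = 0.00291). These 3 passed both comparisons in each of the 12 fits that left out 1 library. Of their 50-base windows, 15.4% (Rps6), 27.8% (Rps4x) and 17.0% (Rps13) occurred in no other gene.

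Of the 27 standard small-subunit genes, 7 were lower than in saline and 10 lower than at PPE week 1, with medians of -0.77 and -0.73. Rps7 (NM_011300, chr12:28630847-28635953) was at 25.2, 25.3, 18.6 and 30.7 CPM in the saline libraries, 15.7, 29.7, 19 and 17.4 in those of PPE week 1 and 9.61, 11.5, 9.81 and 9.36 in those of PPE week 2, changing by -1.31 ± 0.27 (log2) against saline and -1.02 ± 0.27 against PPE week 1. Rps16 (NM_013647, chr7:28350689-28352698), whose tail reaches a transfer RNA site, was at 10.7, 19.1, 21.2 and 13.7 CPM in the saline libraries, 18.2, 17.9, 18.1 and 17.3 in those of PPE week 1 and 2.05, 3.55, 7.62 and 7.84 in those of PPE week 2, with -1.61 ± 0.39 and -1.75 ± 0.39. In both genes every PPE week 2 library was below every other one. Against saline, the adjusted p of Rps16 by edgeR was 0.039 and rose past 0.05 in 9 of the 12 fits without 1 library (up to 0.115), and that of Rps7 was 0.0178 and did so without saline replicate 4 (0.0577). Against PPE week 1, Rps16 passed in all 12 such fits, and Rps7, at an adjusted p of 0.0324, was lost in 5 of them. Rps2 (NM_008503, chr17:24718121-24721927) was at 67.5, 111, 87.3 and 79.98 CPM in the saline libraries, 103, 91.8, 89.8 and 87 in those of PPE week 1 and 44.9, 54.7, 48.3 and 66.7 in those of PPE week 2, with an adjusted p by edgeR of 0.0444 against saline, lost in 10 of the 12 fits, and of 0.0124 against PPE week 1, lost in none. Rps3a1 was lower against saline alone (log2 fold change -0.88 ± 0.19 SE, adjusted p = 0.0184 by edgeR), and was lost without saline replicate 2 or PPE week 2 replicate 4 (adjusted p up to 0.0592).

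Against PPE week 1 alone, Rps9 fell from its raised level (log2 fold change -0.86 ± 0.19 SE, adjusted p = 0.0115 by edgeR) and passed in all 12 fits. Rps3, which lines the mRNA entry channel and also takes part in DNA repair, was at 175, 189, 159 and 164 CPM in the saline libraries, 216, 197, 187 and 199 in those of PPE week 1 and 123, 175, 119 and 161 in those of PPE week 2, -0.47 ± 0.14 (log2, adjusted p = 0.0498 by edgeR), a call lost in 10 of the 12 fits (up to 0.140). Rps28 (NM_016844, chr17:33823036-33824562) had the largest difference of all members but very few counts. It was at 6.62, 7.60, 2.74 and 2.98 CPM in the saline libraries, 9.09, 5.09, 1.95 and 1.20 in those of PPE week 1 and 0.0933, 0.480, 1.05 and 0.648 in those of PPE week 2, with log2 fold change -2.90 ± 0.83 SE, adjusted p = 0.0462 by edgeR against PPE week 1, lost in 11 of the 12 fits (up to 0.195), and log2 fold change -3.10 ± 0.84 SE, adjusted p = 0.0584 against saline. Rps19, the protein most often mutated in Diamond-Blackfan anaemia, had a low level, at 4.79, 7.15, 9.41 and 6.08 CPM in the saline libraries, 5.78, 10.8, 3.07 and 5.49 in those of PPE week 1 and 3.26, 5.18, 3.94 and 5.25 in those of PPE week 2, and passed no comparison.

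**Figure D3:**
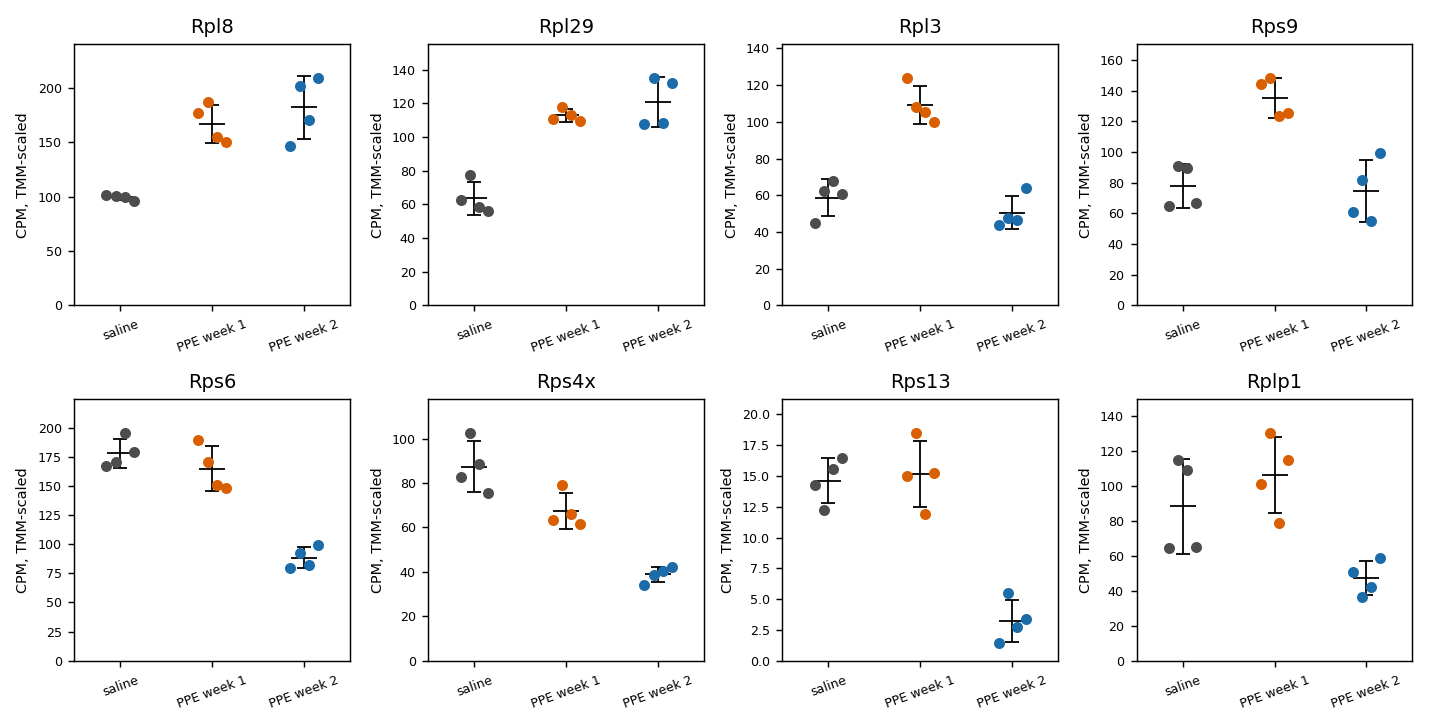
Level in CPM scaled by TMM (y axis, from 0) of 8 ribosomal protein genes, with 1 point per library and the mean and SD of each group of 4. Rpl8 and Rpl29 are above saline at both PPE weeks, Rpl3 and Rps9 at PPE week 1, and Rps6, Rps4x, Rps13 and Rplp1 are lowest at PPE week 2.

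Of the 41 standard large-subunit genes, 2 were higher and 9 lower than in saline at PPE week 2, and 14 were lower than at PPE week 1, with medians of -0.72 and -0.74. Rpl4 (NM_024212, chr9:64173387-64178562), which reaches into the tunnel that the new protein leaves by, was at 294, 313, 337 and 254 CPM in the saline libraries, 277, 262, 256 and 292 in those of PPE week 1 and 176, 183, 149 and 161 in those of PPE week 2. The PPE week 2 libraries were all below the others, 1.79-fold lower than saline (log2 fold change -0.84 ± 0.12 SE, adjusted p = 0.0036 by edgeR). Rpl27a (NM_011975, chr7:109519195-109522369) was at 52.7, 55.3, 65.1 and 66.8 CPM in the saline libraries, 52.8, 63.9, 51.9 and 45.6 in those of PPE week 1 and 25.2, 28.5, 29.4 and 28.6 in those of PPE week 2, and Rpl7 (NM_011291, chr1:16101295-16104433) at 71.7, 73.3, 75.8 and 90.8 CPM in the saline libraries, 64.7, 68.5, 84.8 and 70.9 in those of PPE week 1 and 33.2, 48.4, 44.2 and 44 in those of PPE week 2. Their PPE week 2 libraries did not overlap the other groups either. Against saline the changes were -1.10 ± 0.17 and -0.87 ± 0.16 (log2, adjusted p = 0.0042 and 0.0108 by edgeR). Rpl4, Rpl27a and Rpl7 passed against saline and against PPE week 1 in each of the 12 fits that left out 1 library.

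Rpl35 (NM_025592, chr2:39001581-39005131), which sits at the exit of the tunnel, was at 35.8, 58.7, 33.5 and 38.7 CPM in the saline libraries, 38.3, 42.9, 42.2 and 43.5 in those of PPE week 1 and 12.5, 19.5, 10.3 and 24.5 in those of PPE week 2. It was 2.49-fold lower than in saline (log2 fold change -1.31 ± 0.27 SE, adjusted p = 0.0166 by edgeR) and 2.49-fold lower than at PPE week 1 (adjusted p = 0.00792). The call against saline was lost without saline replicate 2, the highest of that group (adjusted p = 0.0533). Rpl6 (NM_011290, chr5:121204501-121209241) was at 72.1, 97.1, 80.5 and 70.3 CPM in the saline libraries, 71.8, 76.4, 60.4 and 66.1 in those of PPE week 1 and 35.3, 57.6, 27.4 and 39.7 in those of PPE week 2, with -0.999 ± 0.21 (log2) against saline, where the call was lost without saline replicate 2 (0.0507), and -0.78 ± 0.20 against PPE week 1, where it was lost in 5 of the 12 fits (up to 0.102). Rpl21 changed by -0.77 ± 0.18 against saline (adjusted p = 0.03 by edgeR), lost in 4 of the 12 fits (up to 0.0995). Every one of these had its PPE week 2 libraries below all saline libraries.

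Rpl5 and Rpl11 join the ribosome together with the small RNA of the large subunit, and when free they bind Mdm2, the inhibitor of p53. Rpl5 (NM_016980, chr5:107900508-107909005) was at 62.5, 76.7, 79.1 and 52.4 CPM in the saline libraries, 68.8, 76, 58.1 and 59 in those of PPE week 1 and 30.4, 43.4, 30.6 and 39.9 in those of PPE week 2. PPE week 2 lay below both other groups, with log2 fold change -0.91 ± 0.19 SE, adjusted p = 0.0178 by edgeR against saline, lost without saline replicate 3 (0.0651), and log2 fold change -0.86 ± 0.19 SE, adjusted p = 0.0122 against PPE week 1, lost without PPE week 1 replicate 2 (0.0549). Rpl11 (NM_025919, chr4:136049354-136053393) was at 10.8, 30.4, 22.9 and 19.8 CPM in the saline libraries, 29.6, 36.3, 17.4 and 31.9 in those of PPE week 1 and 9.23, 14.1, 7.36 and 13.2 in those of PPE week 2. It overlapped saline and passed against PPE week 1 alone (log2 fold change -1.39 ± 0.34 SE, adjusted p = 0.0209 by edgeR), a call lost without PPE week 2 replicate 3 and without PPE week 1 replicate 1, 2 or 4 (up to 0.0821).

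The members lower against PPE week 1 alone also included Rpl3, back from its raised level (log2 fold change -1.11 ± 0.17 SE, adjusted p = 0.00142 by edgeR, passing in all 12 fits), and Rpl41 (log2 fold change -0.45 ± 0.13 SE, adjusted p = 0.0482, lost in 11 of the 12 and in 7 of 13 other settings). Rpl37a (NM_009084, chr1:72711260-72713813), a zinc-binding protein, was at 5.66, 12.5, 14.1 and 10.7 CPM in the saline libraries, 12.2, 17.1, 8.75 and 15.2 in those of PPE week 1 and 4.57, 2.69, 5.69 and 4.89 in those of PPE week 2, with log2 fold change -1.57 ± 0.39 SE, adjusted p = 0.0245 by edgeR, lost without PPE week 1 replicate 1, 2 or 4 (up to 0.0999). Rpl27 and Rpl7a changed by -0.99 ± 0.28 and -1.0 ± 0.25 (log2, adjusted p = 0.044 and 0.0247 by edgeR), and these calls were lost in 9 and 4 of the 12 fits (up to 0.130 and 0.0921). Rpl10, Rpl13a and Rpl15 passed no comparison. Rpl10, a late-joining protein of the large subunit, was at 42.9, 51.6, 58.8 and 53.1 CPM in the saline libraries, 43.7, 56.1, 44.9 and 48.6 in those of PPE week 1 and 37.7, 54.3, 38.5 and 44.3 in those of PPE week 2, with all groups overlapping. Rpl13a, also known for an interferon-linked role outside the ribosome, was at 56.1, 64.5, 50.6 and 38.7 CPM in the saline libraries, 45.2, 63.9, 52.4 and 50.3 in those of PPE week 1 and 39.7, 20.5, 30.3 and 35.4 in those of PPE week 2 (adjusted p = 0.091 against saline and 0.0529 against PPE week 1, edgeR).

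Of the stalk proteins, Rplp1 fell. Rplp1 (NM_018853, chr9:61913283-61914510) was at 64.5, 115, 109 and 64.8 CPM in the saline libraries, 101, 129.9, 78.8 and 114 in those of PPE week 1 and 50.8, 36.6, 42 and 58.9 in those of PPE week 2, with PPE week 2 below both other groups. The change was log2 fold change -0.90 ± 0.22 SE, adjusted p = 0.041 by edgeR against saline, lost in 6 of the 12 fits (up to 0.121), and log2 fold change -1.17 ± 0.22 SE, adjusted p = 0.00541 against PPE week 1, lost in none. With the precursor share as a covariate the sign against saline turned, to 0.24 (adjusted p = 0.974). Rplp0, the base of the stalk and a common reference gene in PCR, was at 90.5, 181, 117 and 85.4 CPM in the saline libraries, 163, 142, 116 and 142 in those of PPE week 1 and 95.2, 129.9, 71.2 and 97.3 in those of PPE week 2, and passed no comparison (adjusted p = 0.613 at PPE week 2 against saline by edgeR). Rplp2, the partner of Rplp1, had few counts, at 5.40 ± 1.54, 7.05 ± 1.84 and 6.62 ± 4.50 CPM (SD, n = 4) in the order of the groups, and also passed none.

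Paralogs and the matched symbols that are no standard subunit gave the following. Rpl36al (NM_025589, chr12:69182734-69184067), the intronless copy of Rpl36a, was at 32.9, 60.8, 37.6 and 53.1 CPM in the saline libraries, 50.6, 52.3, 49 and 42.7 in those of PPE week 1 and 22.5, 30.02, 15.9 and 27.6 in those of PPE week 2. It was lower against saline (log2 fold change -0.94 ± 0.24 SE, adjusted p = 0.0444 by edgeR, lost in 10 of the 12 fits) and against PPE week 1 (log2 fold change -1.02 ± 0.24 SE, adjusted p = 0.0173, lost in 3). Its X-linked parent Rpl36a had -1.26 ± 0.44 against saline and did not pass (adjusted p = 0.143). Rps23rg1 (NM_001024728, chr8:3567998-3584776) was at 81.9, 81.7, 81.3 and 42.4 CPM in the saline libraries, 90.8, 79.4, 66 and 75.3 in those of PPE week 1 and 35.3, 26.5, 43.7 and 37.6 in those of PPE week 2, so that saline replicate 4 stood apart at the level of PPE week 2. The change was log2 fold change -1.01 ± 0.22 SE, adjusted p = 0.0208 by edgeR against saline, lost in 4 of the 12 fits (up to 0.0723), and log2 fold change -1.12 ± 0.22 SE, adjusted p = 0.00577 against PPE week 1, lost in none. Rps23 itself passed no comparison, at 19.7 ± 7.55, 23 ± 4.13 and 15 ± 6.09 CPM. Rpl32l was lower than at PPE week 1 (log2 fold change -0.76 ± 0.20 SE, adjusted p = 0.0281 by edgeR, lost in 5 of the 12 fits), and Rpl32 was not called (-0.38 ± 0.28). Rpl7l1, a paralog of Rpl7, changed by -0.72 ± 0.20 against saline and was not called (adjusted p = 0.0704). Rpl22l1, Rps4l and Rps19bp1 were at 0 to 8.90 CPM and passed none.

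Calls were fewer among members with few counts. Of the 16 members with a mean under 10 CPM, 13 were below 0 against saline and 15 against PPE week 1, and the 2 that passed a test, both against PPE week 1, were Rps28 and Rpl37a. Among the 23 with a mean of at least 50 CPM, 11 were lower and 2 higher against saline, and 13 lower against PPE week 1. The median SE of a log2 fold change at PPE week 2 against saline was 0.26 for members and 0.41 for all features. Splitting the members at the median share of own windows gave medians of -0.59 and 7 lower against saline in the 36 with more own sequence, and of -0.83 and 10 lower in the 35 with less. Against PPE week 1 the medians were -0.70 and -0.79.

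**Figure D4:**
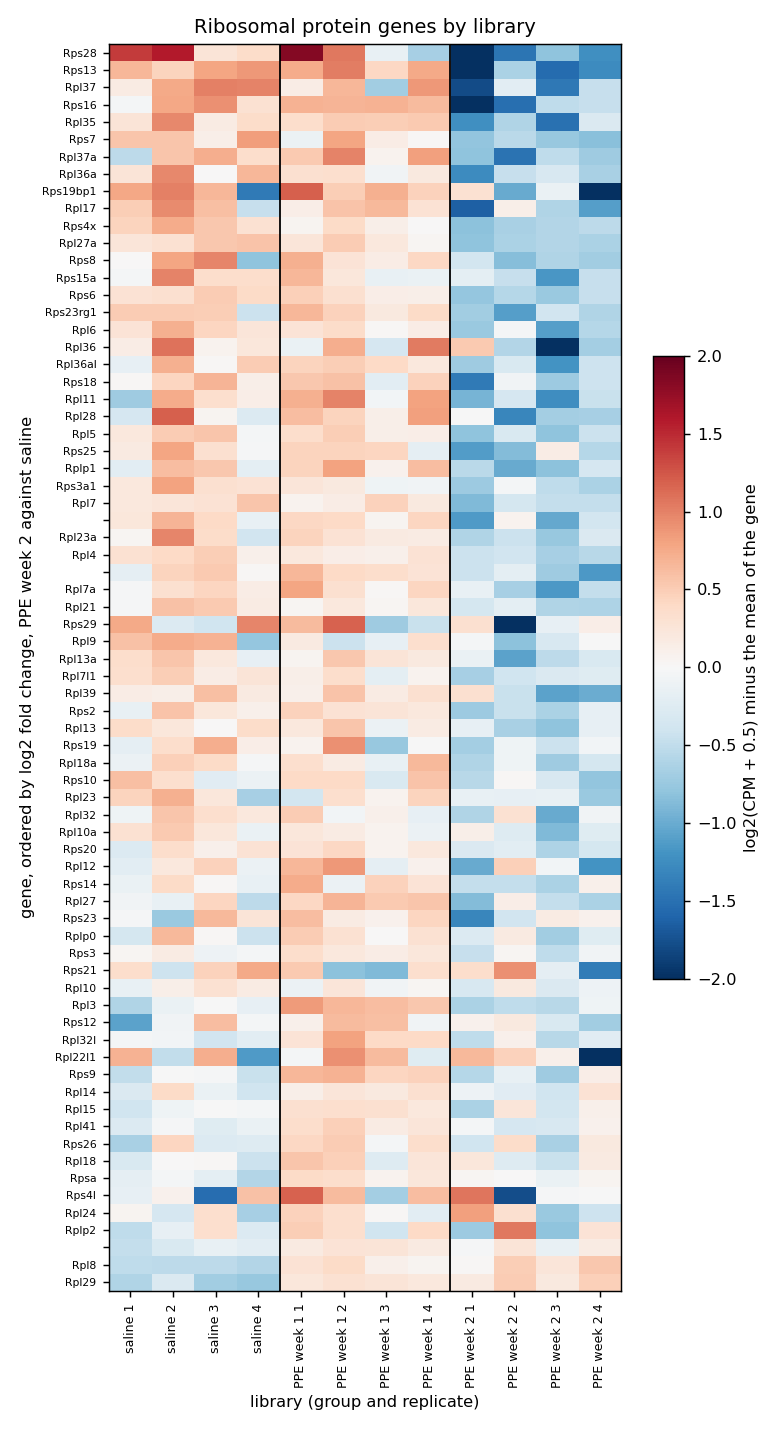
Rows are the 72 ribosomal protein genes, a few without a printed name, ordered by log2 fold change of PPE week 2 against saline, and columns are the 12 libraries; colour is log2(CPM + 0.5) minus the gene's mean over the libraries, with the scale ending at -2 and 2. The 4 PPE week 2 columns are blue over most rows, down to the last rows, where Rpl8 and Rpl29 are lowest in the saline columns.

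The starts of several of these genes are shown because the members moved together at PPE week 2, and because the tract at the start of the mRNA is a feature of this family that the choice by name did not use. RefSeq windows of 300 bases (GRCm38.p6, the assembly behind mm10; 250 before and 50 after the annotated start) were given for 53 of the 72 genes. A run of at least 8 C or T within 30 bases of the start, on the coding strand, was present in 26 of the 53 (49.1%), beside 22.8% of 27025 windows of all genes. The letters CGGAAG or, as their reverse complement, CTTCCG, the core that factors of the ETS family such as GABPA recognise, were present somewhere in the 300 bases in 35 of 53 (66%), beside 17.2%. Both were found in 16 (30.2%), beside 3.61%, and TATAAA in the 60 bases before the start was found in 1 (1.89%), beside 3.15%. The run of C or T and the hexamer CTTCCG can overlap by their shared letters. A match is a description of the letters and not a measured site.

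Each sequence below runs 5′ to 3′ on the coding strand from 100 bases before to 25 bases from the start that the promoter table uses, with every run of at least 8 C or T and every CGGAAG or CTTCCG in capitals. Rps6 (chr4:86857343-86857467, minus strand), Rpl35 (chr2:39005107-39005231, minus strand) and Rps16 (chr7:28350589-28350713, plus strand) fell at PPE week 2. Rps9 (chr7:3703941-3704065, plus strand, where the start used lies 87 bases inside the gene span given above), Rpsa (chr9:120127666-120127790, plus strand) and Rpl41 (chr10:128549144-128549268, minus strand) rose at PPE week 1.
Rps6: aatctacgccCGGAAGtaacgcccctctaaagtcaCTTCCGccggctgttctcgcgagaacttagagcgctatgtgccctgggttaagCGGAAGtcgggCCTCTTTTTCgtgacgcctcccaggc
Rpl35: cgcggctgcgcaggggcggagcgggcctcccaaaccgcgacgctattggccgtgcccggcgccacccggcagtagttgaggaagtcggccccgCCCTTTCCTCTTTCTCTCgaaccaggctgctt
Rps16: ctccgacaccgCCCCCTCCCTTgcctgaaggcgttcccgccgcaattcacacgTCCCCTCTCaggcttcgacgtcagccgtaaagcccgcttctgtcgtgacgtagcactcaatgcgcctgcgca
Rps9: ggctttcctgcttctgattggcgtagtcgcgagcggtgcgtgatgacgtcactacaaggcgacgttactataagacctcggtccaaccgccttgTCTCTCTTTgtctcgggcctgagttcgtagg
Rpsa: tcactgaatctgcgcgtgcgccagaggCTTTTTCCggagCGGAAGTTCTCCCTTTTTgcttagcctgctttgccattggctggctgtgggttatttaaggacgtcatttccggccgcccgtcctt
Rpl41: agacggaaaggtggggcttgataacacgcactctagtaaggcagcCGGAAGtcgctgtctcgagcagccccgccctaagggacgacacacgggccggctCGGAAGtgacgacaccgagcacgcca

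The run near the start was 10 bases long in Rps6, 18 in Rpl35 and 9 in Rps9, whereas the longest within 30 bases of the start was 5 in Rps16, 7 in Rpsa and 4 in Rpl41. The hexamer lay in the printed stretch of Rps6, Rpsa and Rpl41, and elsewhere in the 300 bases of Rpl35 and Rps16. Rps9 had none in its window. Among the printed genes, those that rose and those that fell thus both included starts with the run and starts without it. Over all 53 windows, 7 of 26 genes with the run and 7 of 27 without it were lower at PPE week 2 against saline (1.35% of all features). Their median log2 fold changes were -0.77 and -0.69. With the hexamer 11 of 35 were lower (median -0.88), and without it 3 of 18 (median -0.58). The differences between these splits were not tested.

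The other lists of the pathway were set beside the members to show where they differed. Of 70 mitochondrial ribosomal protein genes, whose products form the separate ribosome of the mitochondrion, 1 passed at PPE week 2 against saline (Mrpl39, lower). None passed at PPE week 1 or between the PPE weeks by edgeR, DESeq2 or limma-voom, with 3 and 5 at an unadjusted p under 0.05. Their median log2 fold changes were 0.09, 0.07 and -0.01 for PPE week 1 and then PPE week 2 relative to saline, and between the PPE weeks. Those of the 72 cytosolic genes were 0.08, -0.73 and -0.74. The difference between the lists themselves was not tested.

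Other mRNAs with a TOP tract, which code for translation factors and RNA-binding proteins, had 4 of 16 lower at PPE week 2 against saline and 5 lower against PPE week 1, with medians of -0.38 and -0.58. Eef1a1, which brings transfer RNAs to the ribosome, was at 1948 ± 212, 1909 ± 79.98 and 1189 ± 128 CPM (mean ± SD, n = 4) in the order of the groups, with a log2 fold change of -0.71 ± 0.10 SE against saline (adjusted p = 0.0036 by edgeR). Tpt1, the growth-linked protein TCTP, changed by -1.10 ± 0.19 (adjusted p = 0.00712 by edgeR). Pabpc1, the poly(A)-binding protein, changed by -0.50 ± 0.13, Eef1g by -0.68 ± 0.17, and Eef1b2 by -0.76 ± 0.16 against PPE week 1. Eef2, which moves the ribosome along the mRNA, had the opposite sign and did not pass (0.36 ± 0.11, adjusted p = 0.0883 by edgeR). At PPE week 1 against saline none of the 16 passed by edgeR, 2 were higher at an unadjusted p under 0.05, and DESeq2 and limma-voom called 1 higher each.

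Genes of ribosome assembly were also lower in part. Of 34 tested, 3 fell at PPE week 2 against saline and 4 against PPE week 1, with medians of -0.26 and -0.41, and 32 of 34 were below 0 against PPE week 1. Ncl, the abundant nucleolar protein nucleolin, was at 373 ± 48.8, 344 ± 25.1 and 249 ± 36.9 CPM, -0.58 ± 0.13 SE (log2) against saline (adjusted p = 0.025 by edgeR). Nop58, of the machinery that methylates ribosomal RNA, changed by -1.03 ± 0.20 (adjusted p = 0.0116). Ddx21, a nucleolar RNA helicase, changed by -0.93 ± 0.20 (adjusted p = 0.0192), and Wdr43 was lower against PPE week 1 (-0.78 ± 0.22, adjusted p = 0.046; edgeR). Of 12 genes for RNA polymerase I and its factors, which make the rRNA precursor, none passed in any comparison by edgeR, DESeq2 or limma-voom, and 1 was lower at an unadjusted p under 0.05 (PPE week 2 against saline). Their median against PPE week 1 was -0.33. Of 11 genes of mTOR and translation signalling none passed by edgeR or limma-voom. Larp1, which binds the TOP tract, was at 192 ± 19.2, 205 ± 25.3 and 151 ± 20.4 CPM (-0.44 ± 0.14 against PPE week 1, adjusted p = 0.0638 by edgeR). DESeq2 called 1 of the 11 higher and 1 lower between the PPE weeks, and none in the comparisons with saline. At an unadjusted p under 0.05, edgeR had 1 higher at PPE week 1, 1 higher and 1 lower at PPE week 2 against saline, and 2 higher and 1 lower between the PPE weeks.

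Rack1, a small-subunit protein that anchors kinases and whose name lies outside the rule, was at 283 ± 3.15, 372 ± 6.89 and 286 ± 82 CPM and did not pass (adjusted p = 0.135 at PPE week 1 against saline by edgeR).

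**Figure D5:**
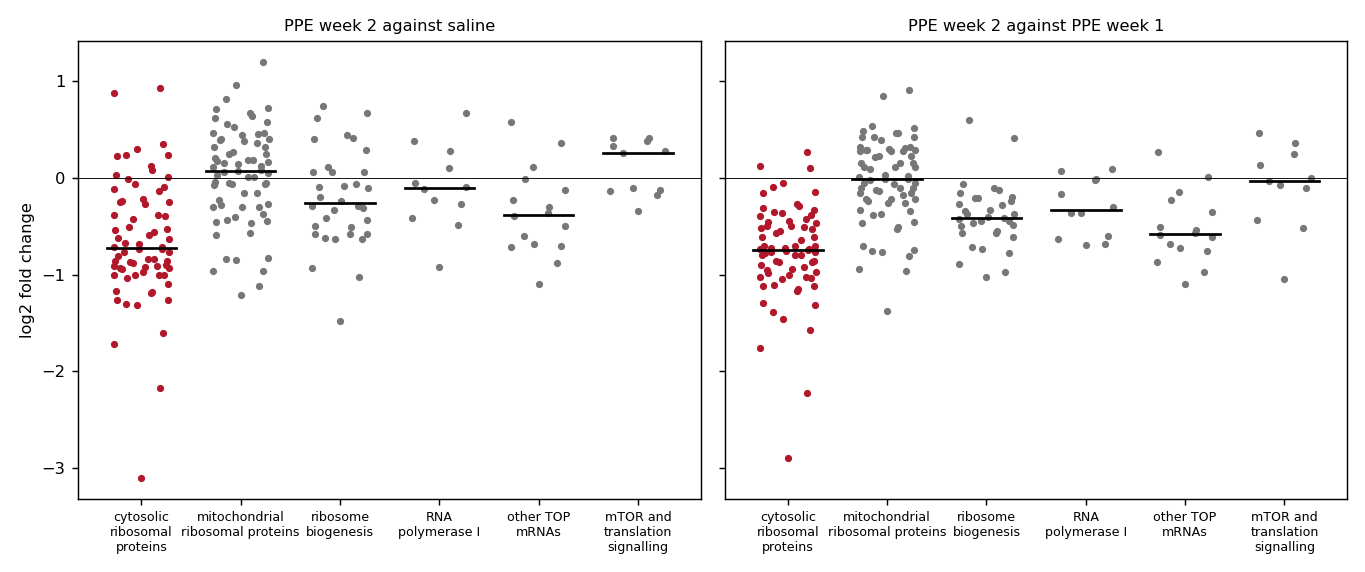
Each point is a tested gene, with its log2 fold change on the y axis and the list on the x axis, and the bar is the list's median, for PPE week 2 against saline (left) and against PPE week 1 (right). The cytosolic ribosomal protein genes lie lowest, at medians of -0.73 and -0.74, and the mitochondrial ones around 0, at 0.07 and -0.01.

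The members' fold changes were not ordered by mRNA length, with Spearman rho of -0.05, 0.02 and 0.07 over 71 genes in the order of the 3 comparisons. For GC content rho was 0.37, 0.23 and 0.03 among members and 0.16, 0.30 and 0.12 over 12515 features. Genes of the same libraries are not independent, and these values are descriptions. In the authors' deposited tables, which list adjusted p-values of their own, 9 members were higher and none lower at PPE week 1 (9.23 and 8.18% of all 13810 rows). At PPE week 2, 2 of the 70 members listed were higher and 18 lower (2.20 and 1.63% of 9917 rows), with Rps21 and Rps29 not among the rows. The members' median log2 fold change in the authors' deposited tables was 0.06 and -0.60.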

How the data were processed

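RNA of 12 mouse aortas (4 per group) was sequenced from TRIzol-extracted, column-purified RNA with a TruSeq v2 kit, per the labels' protocols. That kit does not record strand, so a gene and an antisense partner cannot be told apart. Per the submitters' processing notes, bcl2fastq, DESeq2 and the mouse build mm10 were used, while the aligner and the counting tool were not given in the sources used here. Files deposited by the authors hold raw counts per RefSeq accession, and tables of their own comparisons with log2 fold changes, p-values and adjusted p-values. Of 34755 accessions, RefSeq's table (GRCm38.p6) named 34424 and GENCODE M21 a further 192. Positions are RefSeq's, on mm10.

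From the counts, edgeR 4.0.16 (R 4.3.3) was run on all 12 libraries with 1 mean per group: filterByExpr, TMM, robust quasi-likelihood fit, two-sided tests and Benjamini-Hochberg adjustment over 12756 features of 12239 genes, with a threshold of 0.05. The biological coefficient of variation was 0.512. The SE is the log2 fold change divided by the square root of F. "Passed", "rose" and "fell" refer to this test. Alternatives were other scalings (library size, DESeq2 size factors, TMM without the rRNA precursor or without the members), DESeq2 1.42.0, limma-voom 3.58.1, no low-count filter, 8 libraries only, the precursor share as a covariate, halved counts, summed accessions, a member minimum of 10 CPM, the replicate number as a block, and leaving out each library. Library size without the precursor was added after seeing the data. Code was tested on simulated data.

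Members, gene lists and tests were chosen with earlier results of these data known. Named with values were members past the threshold (the 10 largest changes where more than 10 passed), paralogs and symbols that are no subunit, members picked for known roles, and the 3 highest and 3 lowest per kilobase. Further members past the threshold (Rps2, Rps3a1, Rpl4, Rpl7, Rpl7a, Rpl21, Rpl27) and Rps23, Rpl32, Rpl36a and Rpl15 fall outside that rule and were added after their values were seen. A few genes that the rule or the lists name are not reported here by name; they stay in all fits and counts over the members. Each library is a separate animal per the labels' protocols. With 4 libraries per group, an exact permutation test can go no lower than 0.0286, so single values such as the summed share are given without a test.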

Additional observations from a re-analysis of the deposited data

Results flagged for a closer look

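In saline, Rps23rg1 was at 42.4 CPM in replicate 4 and at 81.3 to 81.9 in the other 3, a gap beyond Dixon's 95% critical value for 4 samples (0.829). A total of 108 such groups were examined and this was the only one past it, while chance gives about 1 in 20.

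PPE week 2 differed from PPE week 1 in 20 of 35 named members (edgeR, adjusted p under 0.05), all 20 lower at PPE week 2, as were 2.82% of all features. Both groups had received elastase and differ in the time after it, and with no saline group at day 14 this is no test of the effect of elastase itself. Many of the 35 were named because they passed this comparison, so the count describes that choice. The differences are given in log2 units. In the small subunit these were Rps28 (-2.90), Rps13 (-2.22), Rps16 (-1.75), Rps7 (-1.02), Rps6 (-0.90), Rps9 (-0.86), Rps4x (-0.79), Rps3 (-0.47) and the retrogene Rps23rg1 (-1.12). In the large subunit they were Rpl37a (-1.57), Rpl11 (-1.39), Rpl35 (-1.32), Rplp1 of the stalk (-1.17), Rpl3 (-1.11), Rpl36al (-1.02), Rpl27a (-0.94), Rpl5 (-0.86), Rpl6 (-0.78), the pseudogene Rpl32l (-0.76) and Rpl41 (-0.45). Rps9, Rpl3 and Rpl41 are the 3 that had risen at PPE week 1.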

How the results depend on the processing

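The sign of the members' median itself held in all 3 comparisons under every alternative run. Taken relative to the median of all features, it turned at PPE week 1 in fits lacking saline replicate 1 (-0.007) or 4 (-0.004). In every other setting the members' median at PPE week 1 was above that of all features. Scaling by library size gave medians of 0.36 for PPE week 1 and -0.22 for PPE week 2 (both relative to saline) and of -0.52 between the PPE weeks. The medians of all features were then 0.28, 0.54 and 0.23. In the same order, 9, 5 and 0 members were higher (8.11, 12.6 and 5.35% of all features) and 0, 4 and 10 lower (1.53, 0.212 and 0.588%). With the precursor share as a covariate the medians were 0.38, -0.11 and -0.55. In that fit 1, 0 and 0 were higher (0.180, 0 and 0.423% of all features) and 0, 0 and 2 lower (0.463, 0 and 0.118%). Against saline at PPE week 2, DESeq2 called 32 lower (2.71% of all features) and the 8-library fit 4 (0.351%). With all counts as denominator the summed shares were 0.300, 0.413 and 0.320%. Leaving out 1 library gave 3 to 8 higher and 0 lower at PPE week 1 (median 0.01 to 0.19), 2 higher and 8 to 16 lower at PPE week 2 (median -0.78 to -0.62), and 0 higher and 13 to 32 lower between the PPE weeks (median -0.81 to -0.70). The mean summed share then lay within 0.496 to 0.529% (saline), 0.583 to 0.606% (PPE week 1) and 0.384 to 0.427% (PPE week 2). Of the 908, 910 and 908 values of the named members under an alternative, 22, 71 and 103 lost the call and 8, 9 and 7 gained one. Among values called in the main fit or in the alternative, the sign turned in 1: Rplp1 at PPE week 2 against saline, 0.24 with the covariate. Sign changes of values called in neither fit were not counted. The causes were not tested. Labels give no pairing of animals, and same-numbered libraries did not deviate together (12 pairs, r -0.09 to 0.04, 2 of 24 best matches with the same number). With a replicate block, 6, 2 and 0 members were higher (3.285, 0.713 and 3.042% of all features). In that fit 0, 13 and 24 were lower (3.496, 0.886 and 2.587%). Of the 16 members under 10 CPM, 2 passed a test.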

Other observations

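The members lay on 19 chromosomes, with at most 14 on 1 of them (chromosome 7). Some neighbouring members were within 100000 bases of each other. Rps29 and Rpl36al on chromosome 12, 23547 bases apart, had log2 fold changes of -0.77 and -0.94 at PPE week 2 against saline. Rpl41 and Rps26 on chromosome 10, 75360 bases apart, had 0.02 and 0.08, and of these 4 genes Rpl36al alone passed the test there.

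Ipo7, an importin that carries ribosomal proteins into the nucleus, fell at PPE week 2 against saline, from 168 ± 11.8 to 103 ± 10.8 CPM (mean ± SD, n = 4; log2 fold change -0.70 ± 0.13 SE, adjusted p = 0.00999 by edgeR). It was the only 1 of 8 chaperone and import genes of ribosomal proteins to pass. Of 10 p53 targets and regulators, Phlda3 rose from PPE week 1 to PPE week 2, from 29.3 ± 3.62 to 56.3 ± 19.1 CPM (0.94 ± 0.24, adjusted p = 0.0267 by edgeR), and edgeR called none against saline, where at PPE week 2 an unadjusted p under 0.05 was reached by 1 upward and 3 downward. Mdm2 and Cdkn1a, at 3.91 ± 2.37 and 2.55 ± 2.03 CPM in saline, had few counts, and what size of difference could be detected in them was not tested. Of the 10 genes, DESeq2 called 1 lower at PPE week 1 and 1 lower at PPE week 2 against saline. With limma-voom, 0 were called against saline and 1 was lower between the PPE weeks.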
